A study of Mus musculus with 10 samples.

Results

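The 54 genes described here encode the machinery that licenses, fires and copies from DNA replication origins. They are a fixed list of named mouse genes, chosen by function under a rule that uses no measured value, but with earlier results of these data known. Each matched 1 of the 48795 gene rows of the RNA-seq count table. They were read in cultures of neural stem and progenitor cells (NSC/NPCs) taken from the subependymal zone (SEZ), the neurogenic niche along the lateral ventricles of the adult brain, of mice aged 10 weeks. The libraries fell into 4 groups. WT PRO (3 libraries) and p27KO PRO (2 libraries) were neurospheres at 3 days in vitro (DIV), grown with 20 ng/ml EGF and 10 ng/ml FGF. WT DIFF (3 libraries) and p27KO DIFF (2 libraries) were cells at 2 + 1 DIV, plated for 2 days on Matrigel with FGF and then kept for 24 h without mitogens in medium with 2% FBS. Stage therefore coincided with attachment, serum and loss of mitogens, which cannot be told apart. Per the study's methods, the Cdkn1b mutant mice came from Jackson Laboratory and were kept on a C57BL/6 J background. The sex and the number of animals behind a library were not given in the sources used here, so p-values measure the spread between these libraries only.

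The p27KO libraries were labelled as deficient for Cdkn1b, the gene of the cyclin-dependent kinase inhibitor p27, in their titles and genotype field, while their free-text descriptions read WT. Counts of Cdkn1b were not lost in them, with 90.7 to 113.8 CPM (counts scaled by the library total) in p27KO PRO and 137.2 to 140.2 CPM in p27KO DIFF, against 102.7 to 112.5 CPM in WT PRO and 205.2 to 208.6 CPM in WT DIFF. A gene total of RNA does not measure p27 protein or show which part of the gene was read, so it does not decide the genotype. These libraries are therefore called the libraries labelled p27KO. They also carried Xist at 2258 to 3595 CPM, against at most 2.57 CPM in WT, and 4 Y-linked genes summed to at most 0.585 CPM, against 189 to 533 CPM in WT, so genotype and sex cannot be told apart. Library totals ran from 19190068 to 25291674 counts. Markers of neural progenitors (7 genes) summed to 7451 to 8259 CPM in WT PRO and 5181 to 6492 CPM in WT DIFF. They summed to 7311 to 7651 CPM in p27KO PRO and 6614 to 6622 CPM in p27KO DIFF. Markers of microglia summed to at most 0.580 CPM, with C1qa, C1qb, C1qc and Tyrobp at 0. Endothelial markers summed to at most 10.6 CPM, with Cdh5 and Cldn5 at 0. Fibroblast and mural markers (5 genes) went from 1.57 to 3.39 CPM in neurospheres to 30.1 to 99.2 CPM at 2 + 1 DIV, and ependymal markers (4 genes) from 15.5 to 22.4 CPM to 85.0 to 103 CPM. The part of these cells in the values below was not tested. In bulk RNA, fewer cells of a type and less RNA per cell cannot be told apart.

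A replication origin is licensed in G1, when the origin recognition complex (ORC), CDC6 and CDT1 load the MCM2-7 helicase as an inactive double ring. The kinase CDC7 with its partner DBF4, together with cyclin-dependent kinase and firing factors such as TICRR, then turns loaded MCM2-7 into the active helicase with CDC45 and GINS. DNA polymerases, the PCNA clamp, replication protein A (RPA) and fork protection factors carry out synthesis, and chromatin assembly factor 1 (CAF-1) deposits histones behind the fork. Many of these genes are classical targets of E2F transcription factors, which are held in check by the retinoblastoma family when cells leave the cycle, and p27 acts upstream of that switch.

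E2F words were more frequent in the promoter windows of the members than in those of all genes tested. RefSeq windows on GRCm38.p6, from 250 bases before to 50 bases after an annotated start, were at hand for 45 of the 54 genes, as 54 windows. The 4 words TTTCCCGC, TTTCGCGC, TTTGCCGC and TTTGGCGC were searched on both strands and may overlap each other. At least 1 of them lay in 18 of the 54 member windows (33.3%), against 4.09% of the 12261 windows of genes tested for expression and 2.26% of all 32851 windows. The CCAAT box lay in 51.9% of member windows and 38.1% of windows of genes tested. The cell cycle homology words TTTGAA and TTCGAA lay in 18.5% of member windows, 13.5% of windows of genes tested and 19.2% of all windows, and the CCAAT box in 37.4% of all windows. These are matches of letters, and binding was not measured here.

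The following stretches show the arrangement, with E2F words in capitals. Cdc6, Orc1 and Mcm3 had the largest WT change of their role group and held E2F words. Mcm8, Pole2, Lig1 and Clspn did so too and are not printed. Mcm10, Cdc45, Prim1, Pcna, Rpa2 and Chaf1b had the largest change of theirs and held no E2F word. Mcm5 and Mcm6 were added after their values were seen, as helicase genes with overlapping words, and Orc3 as a gene that did not fall. All read 5′ to 3′ on the strand of the gene and end at the annotated start, except that of Mcm3, which lies after it. They are chr11:98907991-98908150 (+) for Cdc6, chr4:108579334-108579453 (+) for Orc1, chr1:20820265-20820294 (-) for Mcm3, chr8:75109329-75109508 (+) for Mcm5, chr1:128359706-128359835 (-) for Mcm6 and chr4:34614943-34615062 (-) for Orc3.
Cdc6: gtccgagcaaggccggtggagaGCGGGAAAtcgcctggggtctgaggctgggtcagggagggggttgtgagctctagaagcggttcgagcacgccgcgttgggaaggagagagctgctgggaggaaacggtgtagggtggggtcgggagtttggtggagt
Orc1: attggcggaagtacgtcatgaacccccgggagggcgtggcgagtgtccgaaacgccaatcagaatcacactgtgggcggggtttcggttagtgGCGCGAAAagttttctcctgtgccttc
Mcm3: gGCGGGAAAacttgggaagtTTTGGCGCca
Mcm5: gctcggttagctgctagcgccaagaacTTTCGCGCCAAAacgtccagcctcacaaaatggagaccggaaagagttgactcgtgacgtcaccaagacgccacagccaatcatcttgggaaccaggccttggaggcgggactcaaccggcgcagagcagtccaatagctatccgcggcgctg
Mcm6: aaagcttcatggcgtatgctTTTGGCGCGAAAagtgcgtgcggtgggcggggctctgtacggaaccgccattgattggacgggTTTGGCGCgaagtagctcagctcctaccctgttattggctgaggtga
Orc3: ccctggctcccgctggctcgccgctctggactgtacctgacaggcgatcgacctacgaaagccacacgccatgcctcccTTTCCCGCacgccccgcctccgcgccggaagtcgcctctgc
In Mcm5 and Mcm6, 2 words read from opposite strands overlapped in 1 run of capitals, and Mcm6 held another word 47 bases before its start. The single word of Orc1 lay 27 bases and that of Orc3 41 bases before the start. All distances are to the RefSeq start. Another annotation, GENCODE M21, starts Orc1 at chr4:108579423 and Cdc6 at chr11:98907801, both earlier. Of the 54 member windows, 46 had downstream bases that lay near the opening of a GENCODE transcript, and those of Mcm5 and Mcm6 did not.

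From WT neurospheres to 2 + 1 DIV, nearly the whole replication machinery fell. All 54 genes passed the filter on low counts. By edgeR's quasi-likelihood test, adjusted after Benjamini and Hochberg over 12859 genes, 51 of the 54 members were called DOWN, against 33.9% of all genes tested, 2 were called UP (Orc3 and Orc4), against 33.5%, and Mcm9 was not called. The median log2 fold change of the members was -2.62, with a range from -5.78 to 0.24, and that of all genes was -0.0019. The 3 WT DIFF libraries lay below the 3 WT PRO libraries, with no overlap, for 51 members, as they did for 35.6% of all genes tested. Summed over the members, 4065, 4231 and 4535 CPM in WT PRO became 936, 894 and 1018 CPM in WT DIFF.

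**Figure D1:**
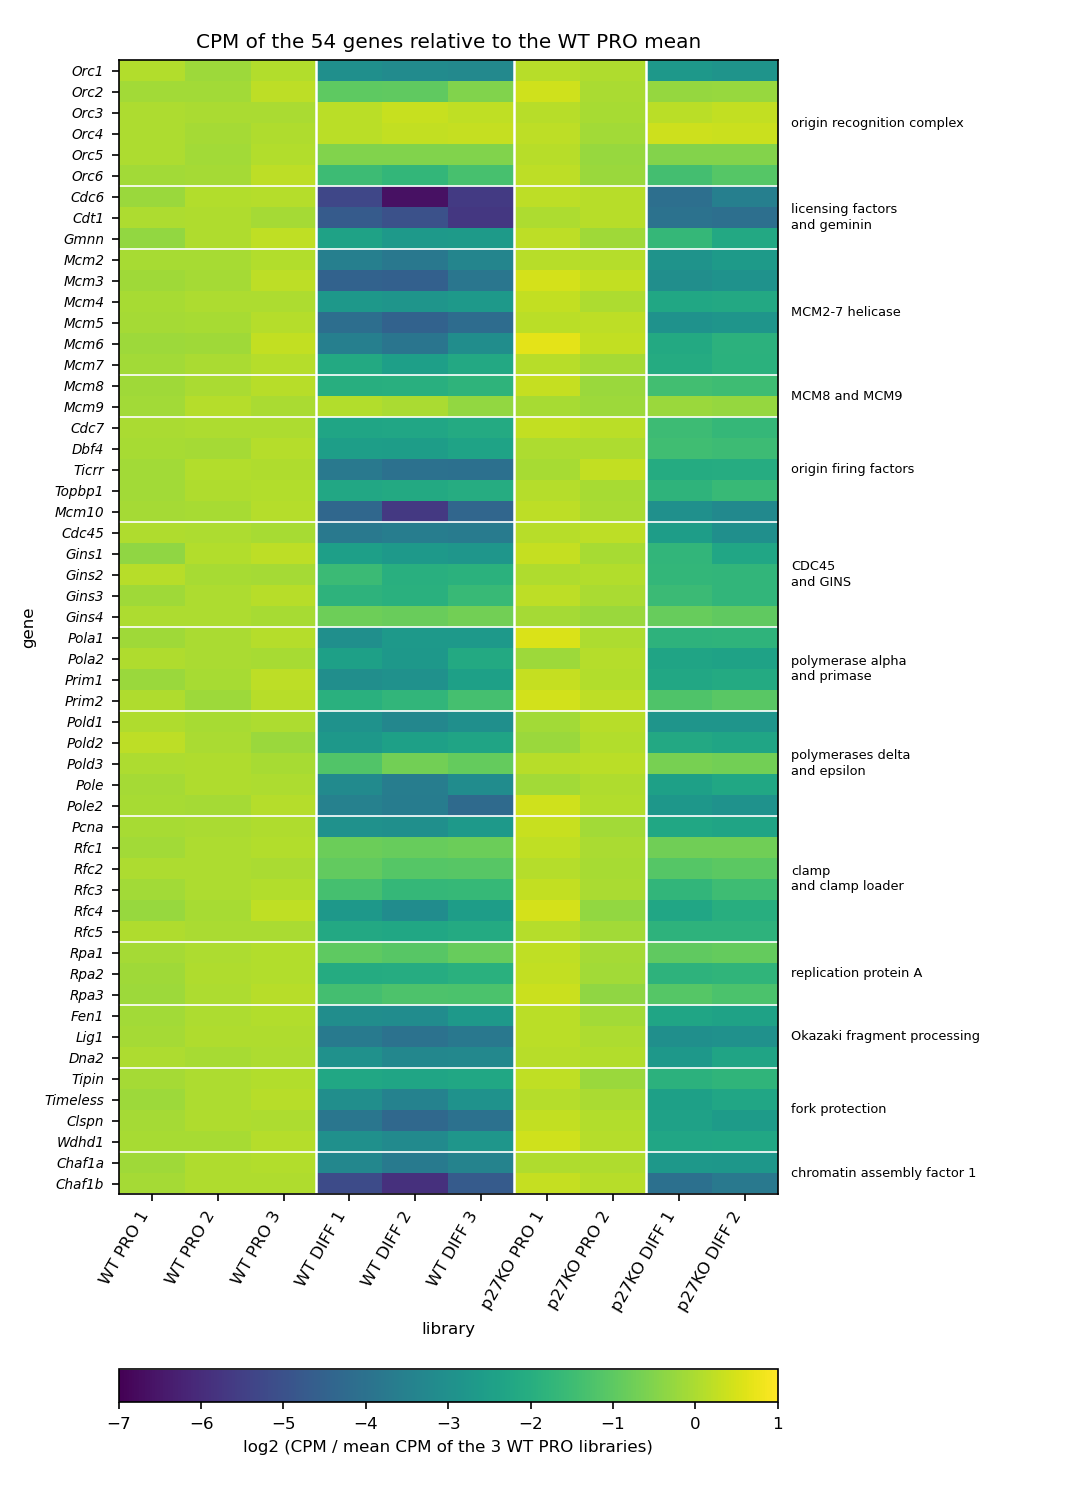
CPM of each of the 54 genes in each of the 10 libraries, as log2 of the ratio to the mean of the 3 WT PRO libraries. Rows are genes, grouped by role and divided by white lines, columns are libraries, and dark colours mark low values. Cdc6, Cdt1, Mcm10 and Chaf1b are darkest in WT DIFF, and Orc3, Orc4 and Mcm9 keep their colour at both stages.

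The depth of the fall differed by role. Licensing factors and CAF-1 had median log2 fold changes of -5.11 and -4.32, the MCM2-7 helicase -3.52, Okazaki fragment processing -3.18, polymerases delta and epsilon -3.08 and fork protection -3.06. CDC45 and GINS were at -1.81, RPA at -1.30 and ORC at -0.67. In the libraries labelled p27KO, 51 members were called DOWN, against 30.2% of all genes tested, and 1 was called UP (Orc4), against 27.5%, with a median of -2.17 (all genes -0.029). There, p27KO DIFF lay below p27KO PRO with no overlap for 52 members, against 39.8% of all genes. Across the 54 genes the changes in WT and p27KO had a Pearson r of 0.97 and a Spearman rho of 0.96. The points of this description share no library between its axes but share the scaling of 1 fit, and genes are not independent replicates. The change was smaller in size in p27KO for 46 of the 54 genes.

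**Figure D2:**
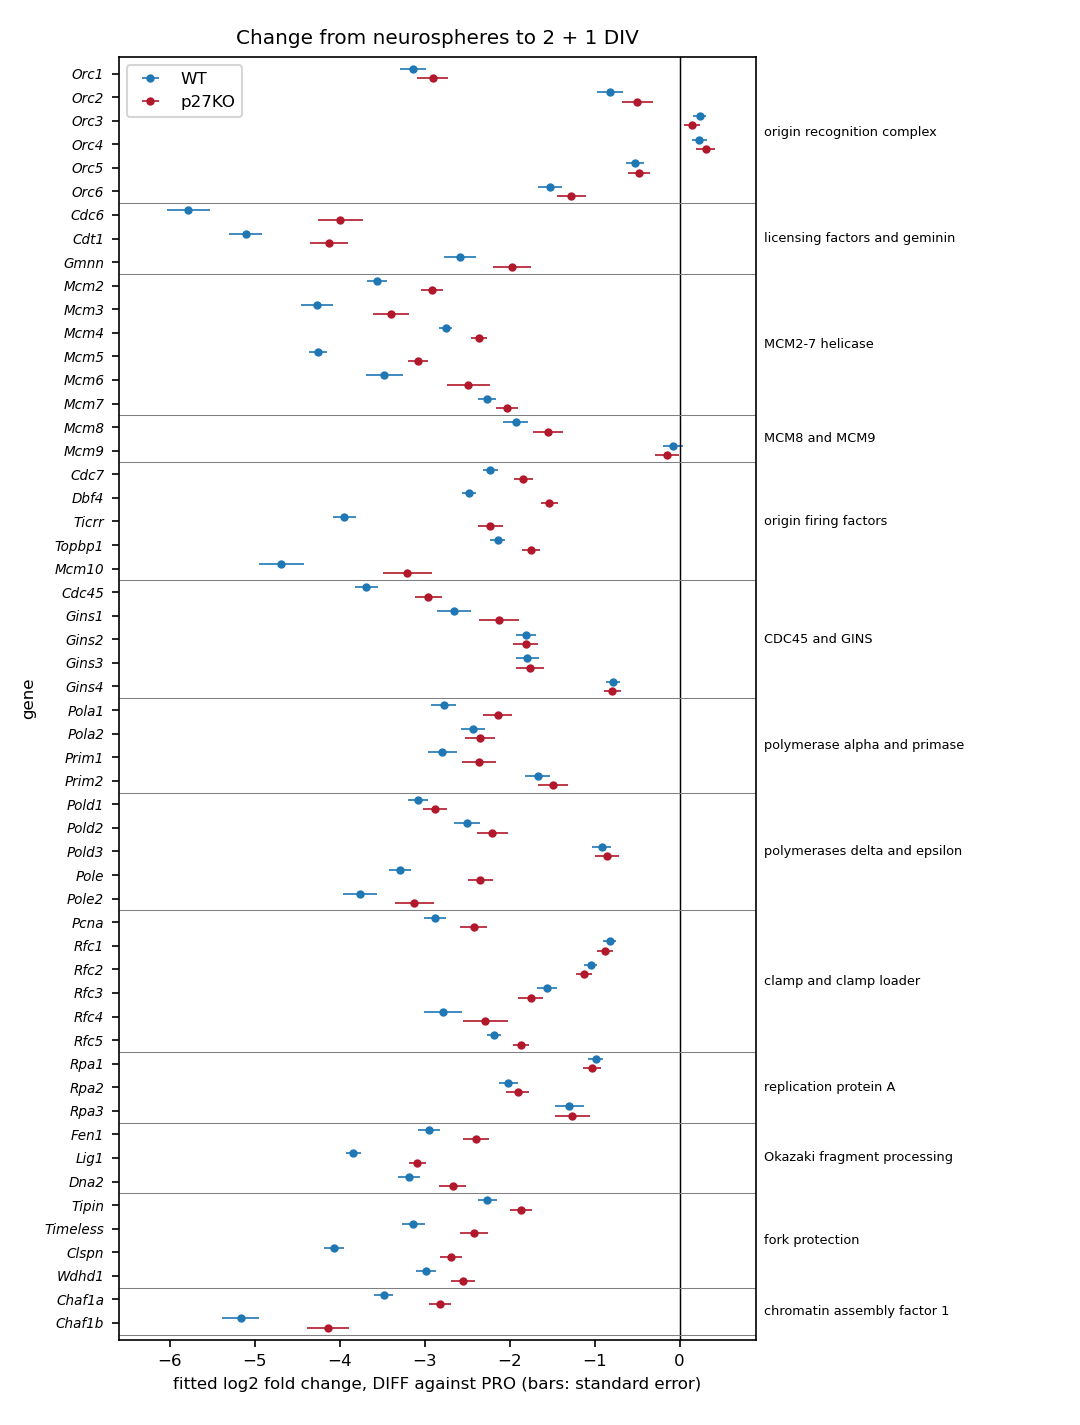
Fitted log2 fold change from PRO to DIFF for each gene, in WT (blue, 3 libraries a stage) and p27KO (red, 2 libraries a stage), with standard errors as bars. Red points lie nearer to 0 than blue points for most helicase, firing and fork protection genes, and the pairs lie on each other for Gins2, Gins3, Gins4, Rfc1 and Rpa1.

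Within ORC, the 6 subunits parted. Orc1, the largest subunit, whose protein rises and falls with the cycle, had 12.5, 10.7 and 12.8 CPM in WT PRO and 1.48, 1.37 and 1.26 CPM in WT DIFF. That is a change of -3.14 ± 0.15 (log2, SE; edgeR's quasi-likelihood test, Benjamini-Hochberg adjusted p = 1.7e-07). In p27KO it went from 13.1 and 12.4 to 1.78 and 1.66 CPM, with a change of -2.91 ± 0.18. Orc6, which binds the complex more loosely, fell to 35.1% of its WT PRO mean. Orc2, the core subunit with the highest mean CPM over the 10 libraries, went from 83.5, 82.4 and 101.9 CPM to 44.99, 46.1 and 62.0 CPM, keeping 57.2%, and Orc5, another core subunit, kept 69.8%. Orc3 and Orc4, core subunits too, moved the other way by a small step. Orc3 had 52.4, 51.3 and 51.8 CPM in WT PRO and 58.5, 65.0 and 61.2 CPM in WT DIFF (0.24 ± 0.08, adjusted p = 0.019 in edgeR's quasi-likelihood test), and Orc4 had 50.4, 46.7 and 51.0 and then 55.0, 59.1 and 61.3 CPM (0.23 ± 0.09, adjusted p = 0.038). Both genes' DIFF libraries lay above their PRO libraries in both genotypes, a separation for which no share of all genes is given here. Of all genes tested, 33.5% were called UP in WT and 27.5% in p27KO. In p27KO only Orc4 was called, at 0.31 ± 0.11 (adjusted p = 0.034 in edgeR's quasi-likelihood test), and Orc3 gave 0.15 with a 95% interval from -0.06 to 0.36. With no filter on low counts neither rise was called in either genotype. Without WT DIFF replicate 2, 0 of the 2 were called in WT. Without WT DIFF replicate 3 or any 1 of the WT PRO libraries, Orc3 was called in WT and Orc4 was not. With the compared groups alone, Orc4 was not called in p27KO. Over 18 alternatives its p27KO value ran from 0.18 to 0.44, with the lowest where p27KO PRO was left with 1 library. On a per-length scale (counts divided by exon bases, scaled to one total in every library), Orc1 was the scarcest subunit in WT PRO at 10.7 ± 0.928 (SD, n = 3) and Orc2 the most abundant at 72.2 ± 9.499. Their span was 6.73-fold in WT PRO and 33.6-fold in WT DIFF. Of Orc2's exon bases, 29.8% overlap Nif3l1 on the opposite strand, and the counting is not stated to use strand.

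The licensing factors that ORC works with had the deepest role median, and Cdc6 fell furthest of all members. Cdc6, the ATPase that joins ORC to load the helicase, had 39.5, 48.5 and 49.1 CPM in WT PRO and 1.17, 0.456 and 0.909 CPM in WT DIFF, which rest on 11 to 23 counts a library. It kept 1.85% of its neurosphere mean, a change of -5.78 ± 0.25. In p27KO it went from 52.5 and 50.0 CPM to 2.70 and 3.87 CPM, keeping 6.41% (-3.99 ± 0.27). Cdt1, which escorts MCM2-7 to the origin, had 33.8, 34.5 and 31.4 CPM in WT PRO and 1.27, 1.04 and 0.633 CPM in WT DIFF, keeping 2.95%. It kept 5.81% in p27KO, from 33.9 and 36.4 to 2.10 and 1.98 CPM. Gmnn, which encodes geminin, the inhibitor of CDT1, fell less, to 16.9% in WT and 25.8% in p27KO. The ratio of Cdt1 to Gmnn on the per-length scale was accordingly 0.925, 0.748 and 0.600 in WT PRO and 0.148, 0.152 and 0.0868 in WT DIFF. It was 0.659 and 0.882 in p27KO PRO and 0.150 and 0.199 in p27KO DIFF, and the ratio was under 1 in all 10 libraries and lower in each DIFF library than in any PRO library.

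The 6 subunits of MCM2-7, the ring that unwinds DNA, form a 1-to-1 hexamer, and their transcripts lay within a 2.05-fold span in WT PRO on the per-length scale, from 91.5 ± 5.04 for Mcm2 to 187 ± 9.18 for Mcm4. At 2 + 1 DIV the span widened to 5.23-fold, from 6.12 ± 0.909 for Mcm5 to 32.0 ± 4.73 for Mcm7. Mcm3 fell most (-4.27 ± 0.18), from 181.5, 188 and 227 CPM to 8.91, 8.50 and 13.8 CPM. Mcm5 was close to it (-4.25 ± 0.11), from 135.7, 138.3 and 154.5 to 8.25, 6.42 and 7.99 CPM. Mcm6, the highest of the 6 by mean CPM over the 10 libraries, went from 229, 236 and 313 to 22.2, 17.6 and 30.7 CPM, and Mcm2 from 199.6, 198.6 and 215 to 17.6, 14.8 and 20.0 CPM. Mcm4 and Mcm7 kept 15.0% and 20.97%, the largest shares of the 6. In p27KO the same 6 genes kept 9.63% (Mcm3) to 24.9% (Mcm7). The per-length ratio of Mcm5 to Mcm7 shows the shift within single libraries. It was 0.773, 0.737 and 0.766 in WT PRO and 0.191 in each of the 3 WT DIFF libraries, against 0.784 and 0.916 in p27KO PRO and 0.429 and 0.393 in p27KO DIFF.

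**Figure D3:**
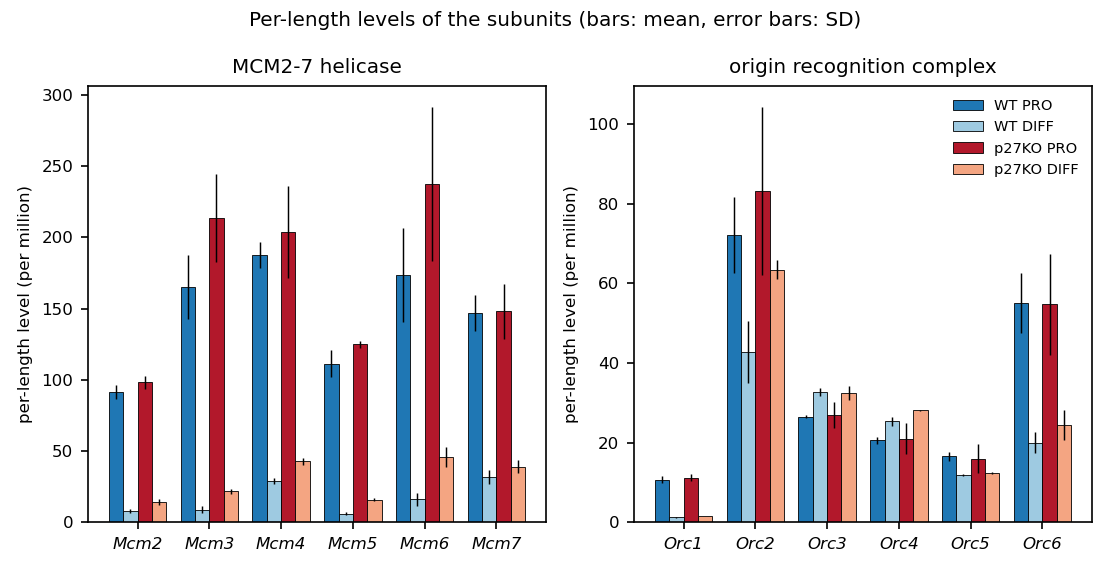
Per-length levels (counts per exon base, scaled to the same total in every library) of the 6 MCM2-7 and the 6 ORC subunits in the 4 groups, as means with SD (n = 3 WT, n = 2 p27KO). All MCM2-7 bars drop at DIFF, to between 6.12 and 32.0 in WT, while Orc2, Orc3, Orc4 and Orc5 stay in sight and Orc1 drops to 1.27 in WT DIFF.

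The relatives of the hexamer that act in repair of broken forks and in meiotic recombination, Mcm8 and Mcm9, were split. Mcm8 fell to 26.5% of its neurosphere mean in WT (17.6, 19.3 and 21.4 to 4.89, 4.97 and 5.58 CPM; -1.93 ± 0.15) and to 34.8% in p27KO. Mcm9 had 15.4, 18.1 and 16.4 CPM in WT PRO and 17.6, 16.3 and 13.7 CPM in WT DIFF, and its groups overlapped. Its fitted change was -0.08 with a 95% interval from -0.35 to 0.18 in WT and -0.15 (-0.47 to 0.18) in p27KO. Asf1a, which shares 19.2% of the exon bases of Mcm9 from the opposite strand, gave 0.28 ± 0.13 in WT.

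Of the origin firing factors, Mcm10, which helps the helicase to open, fell most in WT, from 50.1, 51.0 and 57.5 CPM to 2.65, 1.04 and 2.57 CPM (-4.69 ± 0.26). Ticrr, also known as treslin, which brings CDC45 to loaded MCM2-7 after phosphorylation by cyclin-dependent kinase, went from 44.9, 51.3 and 49.8 CPM to 3.61, 2.98 and 2.97 CPM (-3.95 ± 0.13). Dbf4, the activating subunit of the CDC7 kinase, went from 68.0, 66.4 and 74.3 CPM to 12.3, 11.9 and 13.6 CPM (-2.48 ± 0.08). Its catalytic partner Cdc7 went from 41.9, 43.2 and 42.8 to 8.65, 8.91 and 9.96 CPM (-2.23 ± 0.09). Topbp1, a scaffold of both firing and checkpoint signalling, kept 22.9% (206, 230 and 237 to 48.5, 50.7 and 54.8 CPM). In p27KO the shares kept were 11.02% for Mcm10, 21.8% for Ticrr, 35.1% for Dbf4, 28.4% for Cdc7 and 30.3% for Topbp1.

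CDC45 and the 4 GINS subunits travel together as parts of the active helicase, but their transcripts moved apart. Cdc45 fell from 38.1, 37.4 and 36.2 CPM to 2.75, 3.03 and 2.93 CPM in WT (-3.69 ± 0.14), keeping 7.79%. Gins2, with the highest mean CPM of the 5 genes over the 10 libraries, went from 49.2, 43.2 and 42.4 CPM to 15.4, 11.5 and 12.02 CPM, keeping 28.9%. Gins1 kept 16.0%, Gins3 29.1% and Gins4 58.6%. The values for p27KO were 13.1% for Cdc45 and 23.2%, 29.0%, 30.0% and 58.7% for Gins1 to Gins4. Gins4 was the subunit with the highest per-length level in all 4 groups. Gins2 overlaps Gse1 on the opposite strand over 67.3% of its exon bases, and without strand the reads of the pair cannot be told apart.

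The genes of polymerase alpha and primase, which start each new strand, fell to 14.5% (Prim1) to 31.6% (Prim2) of their neurosphere mean in WT. Pola1, the catalytic subunit, went from 81.0, 88.9 and 96.7 CPM to 11.1, 14.0 and 14.0 CPM, and Prim1, the catalytic primase subunit, from 46.0, 52.2 and 61.9 to 6.51, 6.84 and 9.85 CPM. Of the polymerases of the leading and lagging strand, the catalytic genes Pole (-3.29 ± 0.13) and Pold1 (-3.08 ± 0.12) and the accessory gene Pole2 (-3.76 ± 0.20) fell by more than Pold3 (-0.92 ± 0.12), an accessory subunit of polymerase delta that kept 53.2%. Pole had 102.7, 111.2 and 108.5 CPM in WT PRO and 11.96, 8.75 and 12.5 CPM in WT DIFF, and Pole2 went from 14.3, 14.2 and 16.1 CPM to 1.32, 1.202 and 0.791 CPM. The per-length ratio of Pold1 to Pold3 dropped from 1.21, 1.13 and 1.27 to 0.360, 0.1999 and 0.270 in WT, and from 1.02 and 1.19 to 0.267 and 0.277 in p27KO.

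Pcna, the sliding clamp, was the most abundant of the 54 genes on the per-length scale in every group, at 459 ± 21.9 in WT PRO and 65.0 ± 8.99 in WT DIFF. Its libraries read 345, 349 and 366 CPM and then 45.8, 43.3 and 55.8 CPM (-2.88 ± 0.13). In p27KO they read 445 and 325 CPM and then 75.6 and 69.9 CPM (-2.42 ± 0.15). The clamp loader was uneven. Rfc4 fell by about as much as Pcna, from 30.9, 34.8 and 42.7 to 5.40, 4.23 and 6.25 CPM (-2.78 ± 0.23), whereas Rfc1, the large subunit, kept 57.0% in WT and 55.5% in p27KO and Rfc2 kept 48.8% and 46.6%. Rfc3 gave -1.56 ± 0.12 and Rfc5 -2.18 ± 0.08. Of RPA, the single-strand binding trimer, Rpa1 had 176.7, 189 and 199.6 CPM and then 94.8, 88.8 and 104 CPM, keeping 50.85%, and Rpa3 kept 41.0%. Rpa2 fell most of the 3, from 43.4, 48.9 and 50.4 to 11.4, 11.5 and 12.7 CPM (-2.02 ± 0.11). RPA and RFC are also known for their part in DNA repair.

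The Okazaki genes, which join the short pieces of the lagging strand, fell as a set, with Lig1, the replicative ligase, going from 130.8, 144 and 142.5 CPM to 10.6, 8.83 and 10.0 CPM (-3.84 ± 0.09). The nuclease genes Dna2 and Fen1 gave -3.18 ± 0.13 and -2.95 ± 0.13. An antisense gene, Gm10143, overlaps 78.8% of the exon bases of Fen1, with a mean of 39.7 counts against 712 for Fen1. Of the fork protection genes, Clspn, which relays checkpoint signals at the fork, went from 73.3, 79.4 and 76.96 to 5.24, 3.85 and 4.71 CPM (-4.07 ± 0.12), Timeless kept 11.5%, Wdhd1 12.8% and Tipin, the partner of Timeless, 20.97%. Of CAF-1, Chaf1b fell from 39.2, 42.9 and 43.3 to 1.17, 0.705 and 1.62 CPM (-5.17 ± 0.22), and Chaf1a from 75.1, 85.4 and 88.3 to 8.45, 6.38 and 7.67 CPM (-3.48 ± 0.11). Chaf1a shares 52.5% of its exon bases with Ubxn6 on the opposite strand.

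In neurospheres no gene of the machinery was called between the libraries labelled p27KO and WT. In edgeR's quasi-likelihood test, 0 of the 54 members were called UP, against 0.0156% of all genes, and 0 DOWN, against 0%, while 6 had an unadjusted p under 0.05, as did 603 of the 12859 genes tested. DESeq2 called 0 as well, and 40 of all genes. The median log2 difference was 0.12 (all genes -0.0039), the range -0.11 to 0.50, and 50 of the 54 fitted values were positive. The p27KO PRO libraries lay above the WT PRO libraries with no overlap for 12 members, against 6.94% of all genes, and below them for 1 (Gins4, with 30.4 and 28.1 CPM against 32.8, 32.75 and 30.9 CPM), against 10.9%. The 2 p27KO PRO libraries were not alike. Replicate 1 was above all 3 WT PRO libraries for 41 members and replicate 2 for 16, and the members' CPM summed to 5062 and 4377. Without replicate 1 the median difference was 0.062, and without replicate 2 it was 0.20. The largest value was that of Mcm6, with 409.7 and 311 CPM in p27KO PRO against 229, 236 and 313 CPM in WT PRO (0.50, 95% interval 0.01 to 0.98, adjusted p = 1.0 in edgeR's quasi-likelihood test). The 95% interval was -0.10 to 0.40 for Mcm2, -0.12 to 0.44 for Ticrr and -0.27 to 0.65 for Cdc6.

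At 2 + 1 DIV a subset of the machinery was higher in the libraries labelled p27KO. There, 21 of the 54 members were called UP, against 1.91% of all genes tested, and 0 were called DOWN, against 0.124%. The median was 0.59 (all genes -0.015). The p27KO DIFF libraries lay above the WT DIFF libraries with no overlap for 42 members, against 17.0% of all genes tested. They lay below with no overlap for 1 member, against 20.4%. That was Gins4, with 17.7 and 16.6 CPM against 18.7, 17.95 and 19.8 CPM in WT DIFF. The 21 were Cdc6 and Cdt1 of licensing, Mcm2 to Mcm6 of the helicase, all 5 firing factors, Cdc45, Pola1, Pole, Lig1, Timeless, Clspn and Wdhd1 of the fork, and both CAF-1 genes. No member of ORC, RPA, the clamp and its loader or the MCM8 and MCM9 pair was among them in this fit. When replicate numbers entered the fit as a block, 24 were called. Orc2 (adjusted p = 0.026 in edgeR's quasi-likelihood test), Pcna (0.027), Prim1 (0.017) and Fen1 (0.033) were then called as well, and Cdt1 (0.058) was not. That block treated same-numbered WT and p27KO libraries as 1 set, a match not given in the sources used here. Deviations of same-numbered p27KO libraries of both stages had a correlation of -0.196. The fit with the block called 390 of all genes tested in either direction, against 262 in the main fit. These 21 calls rest on the spread shared by all 4 groups. With the 5 DIFF libraries alone, 4 were called (Mcm5, Dbf4, Ticrr and Clspn), and 39 of all genes. Without p27KO DIFF replicate 1 or 2, which left 1 library in the group, the members' median was 0.54 or 0.53. DESeq2 called 29, and 631 of all genes.

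**Figure D4:**
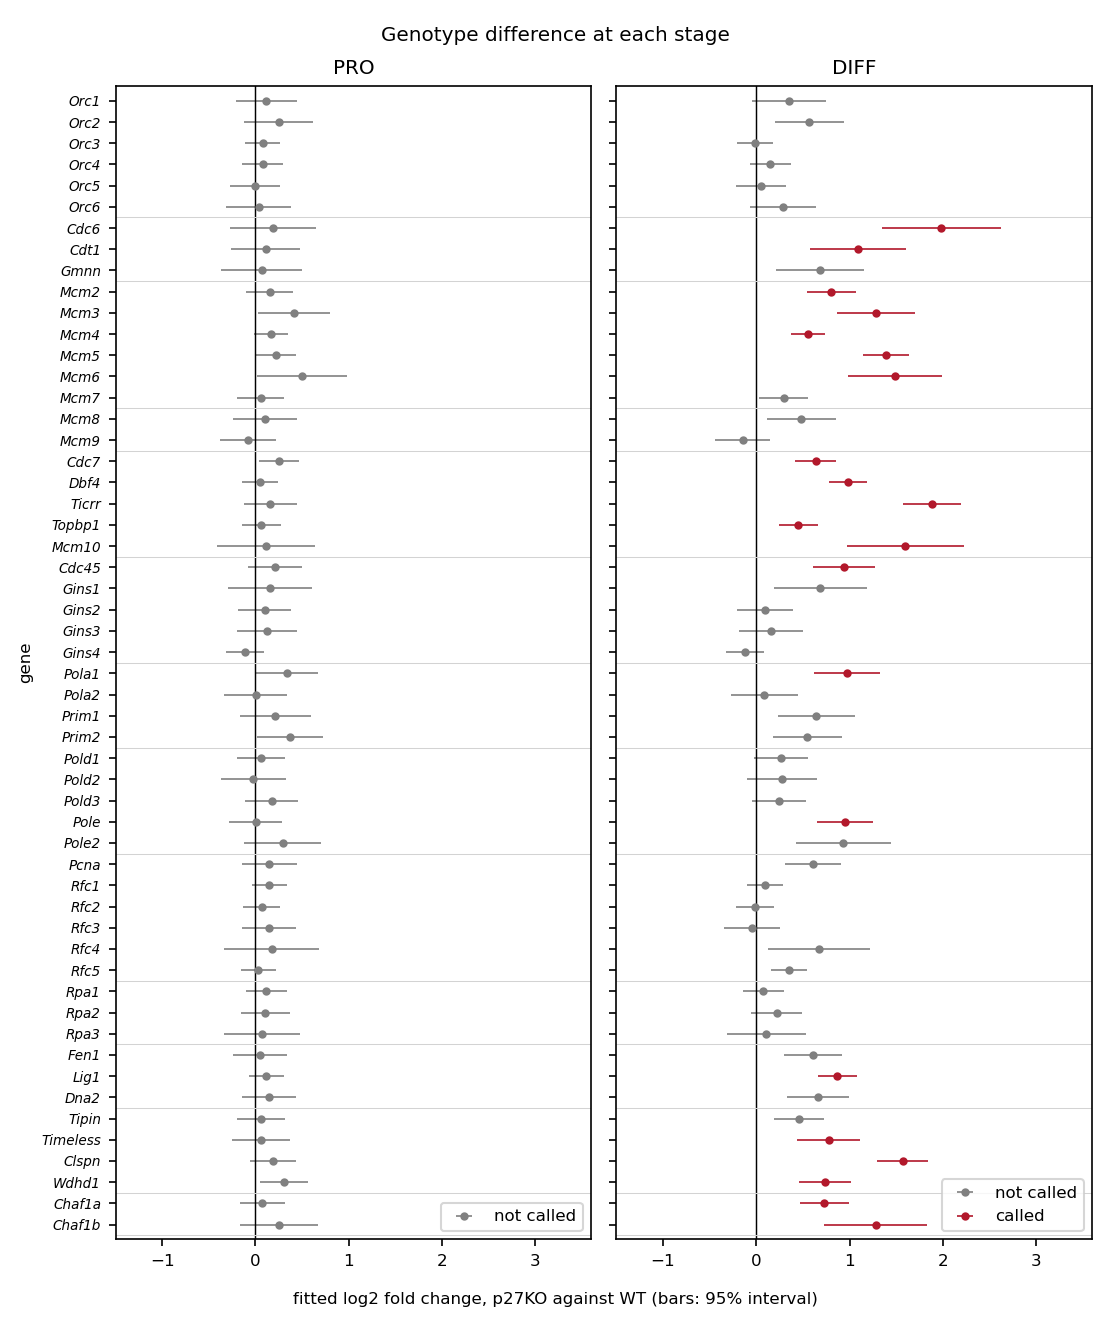
Fitted log2 fold change of p27KO against WT for each gene in neurospheres (PRO, left) and at 2 + 1 DIV (DIFF, right), with 95% intervals as bars and genes in the order of the earlier plots. No gene is called on the left; on the right the 21 called genes are red, and the intervals of the core ORC genes Orc3, Orc4 and Orc5, of Gins2 to Gins4, Rfc1 to Rfc3 and the 3 RPA genes include 0.

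The largest of these differences was that of Cdc6, with 2.70 and 3.87 CPM in p27KO DIFF against 1.17, 0.456 and 0.909 CPM in WT DIFF (1.98 ± 0.28, adjusted p = 0.0057 in edgeR's quasi-likelihood test), although p27KO cells kept 6.41% of their own neurosphere mean. Ticrr had 11.4 and 11.8 CPM against 3.61, 2.98 and 2.97 CPM (1.88 ± 0.14), and Mcm10 6.62 and 5.76 CPM against 2.65, 1.04 and 2.57 CPM (1.60 ± 0.28). Clspn had 14.3 and 12.6 CPM against 5.24, 3.85 and 4.71 CPM (1.57 ± 0.12). Among the helicase genes, Mcm6 had 59.1 and 71.6 CPM against 22.2, 17.6 and 30.7 CPM (1.49 ± 0.22), Mcm5 19.03 and 20.2 CPM against 8.25, 6.42 and 7.99 CPM (1.39 ± 0.11), and Mcm3 23.9 and 26.4 CPM against 8.91, 8.50 and 13.8 CPM (1.28 ± 0.19). Mcm2 had 27.4 and 32.9 CPM against 17.6, 14.8 and 20.0 CPM (0.80 ± 0.12), and Mcm4 45.8 and 48.2 CPM against 32.6, 30.6 and 33.6 CPM (0.56 ± 0.08). Mcm7, the sixth subunit, was not called, at 49.2 and 56.9 CPM against 47.7, 37.3 and 46.3 CPM (0.29, 95% interval 0.03 to 0.55).

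The other called genes also had no overlap between the groups, as for 42 of the 54 members and 17.0% of all genes tested with p27KO DIFF higher. Chaf1b had 2.54 and 3.10 CPM in p27KO DIFF against 1.17, 0.705 and 1.62 CPM in WT DIFF (1.28 ± 0.25), and Chaf1a 12.5 and 12.1 CPM against 8.45, 6.38 and 7.67 CPM (0.73 ± 0.12). Cdt1 had 2.10 and 1.98 CPM against 1.27, 1.04 and 0.633 CPM (1.09 ± 0.23), and Dbf4 25.2 and 24.3 CPM against 12.3, 11.9 and 13.6 CPM (0.99 ± 0.09). Pola1, which lies on the X chromosome, had 25.3 and 25.5 CPM against 11.1, 14.0 and 14.0 CPM (0.97 ± 0.16); genotype and sex cannot be told apart for it. Pole had 19.7 and 22.6 CPM against 11.96, 8.75 and 12.5 CPM (0.95 ± 0.14), and Cdc45 6.38 and 4.63 CPM against 2.75, 3.03 and 2.93 CPM (0.94 ± 0.15). Lig1 had 17.4 and 18.1 CPM against 10.6, 8.83 and 10.0 CPM (0.87 ± 0.09). Timeless (0.78 ± 0.15), Wdhd1 (0.74 ± 0.13), Cdc7 (0.64 ± 0.10) and Topbp1 (0.45 ± 0.09) completed the 21. Their p27KO DIFF libraries read 11.1 and 12.5 CPM for Timeless, 11.6 and 12.01 CPM for Wdhd1, 15.0 and 13.3 CPM for Cdc7 and 65.2 and 73.9 CPM for Topbp1.

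The genes not called included some with values as large as those called. Pole2 had 2.18 and 1.98 CPM in p27KO DIFF against 1.32, 1.202 and 0.791 CPM in WT DIFF (0.93, 95% interval 0.42 to 1.45; adjusted p = 0.084 in edgeR's quasi-likelihood test), and Gmnn gave 0.68 (0.21 to 1.15) and Pcna 0.61 (0.31 to 0.91). For others the interval was narrow and included 0: Orc3 (-0.20 to 0.18), Rfc1 (-0.10 to 0.29), Rfc2 (-0.21 to 0.19), Rpa1 (-0.15 to 0.30) and Gins4 (-0.33 to 0.09). Summed over the members, the p27KO DIFF libraries stood at 1248 and 1294 CPM and the WT DIFF libraries at 894 to 1018 CPM, against 4065 to 5062 CPM in neurospheres of both labels. Mki67, a gene of cycling cells that is no member, moved with these values, at 97.4 ± 26.4 CPM in WT DIFF (SD, n = 3) and 337 ± 33.4 CPM in p27KO DIFF (SD, n = 2). Its part in the members' values was not tested.

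The design also asks whether the stage change itself differed between the labels, which the interaction term tests. In edgeR's quasi-likelihood test 5 members were called UP, against 0.389% of all genes tested, and 0 DOWN, against 0%. A positive value here means a smaller fall in p27KO. The median of the members was 0.39 (all genes -0.0086), 46 were positive, and 26 had an unadjusted p under 0.05, as did 554 of the 12859 genes tested. The 5 were Ticrr (1.72 ± 0.19, adjusted p = 0.022), Clspn (1.38 ± 0.17, 0.023), Mcm5 (1.18 ± 0.15, 0.023), Dbf4 (0.94 ± 0.13, 0.023) and Lig1 (0.75 ± 0.13, 0.046). They span loading, firing, checkpoint relay and ligation. In neurospheres, the p27KO libraries of these genes read 47.6 and 59.0 CPM for Ticrr, 91.2 and 80.1 CPM for Clspn, 161.1 and 164 CPM for Mcm5, 70.2 and 70.7 CPM for Dbf4 and 155.8 and 140.6 CPM for Lig1. Ticrr kept 6.55% of its neurosphere mean in WT and 21.8% in p27KO, Clspn 6.01% and 15.7%, Mcm5 5.29% and 12.1%, Dbf4 18.1% and 35.1% and Lig1 7.055% and 11.97%. When replicate numbers entered the fit as a block, Lig1 was not called (adjusted p = 0.10 in edgeR's quasi-likelihood test).

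**Figure D5:**
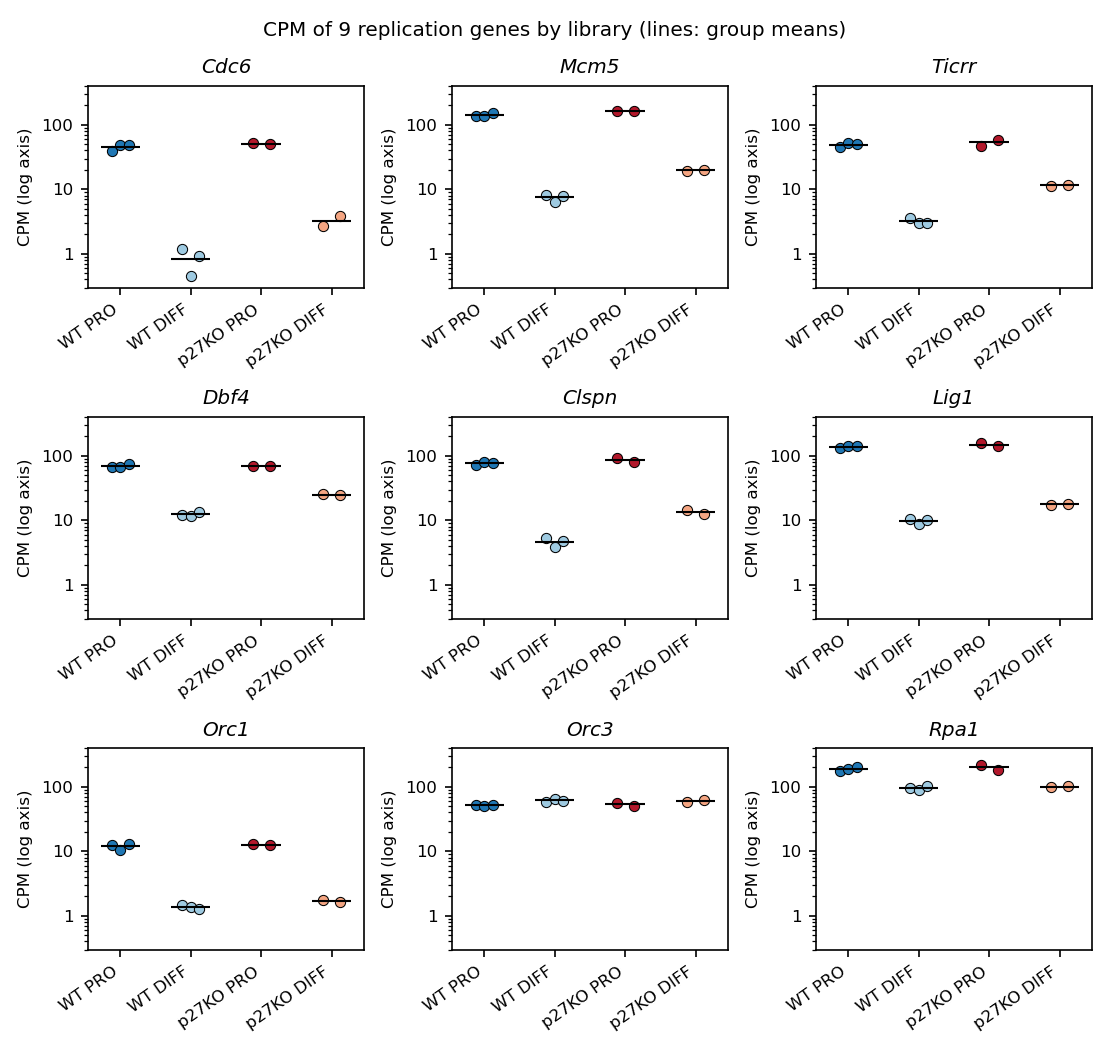
CPM on a log axis in each library for Cdc6, the 5 genes called in the interaction (Mcm5, Ticrr, Dbf4, Clspn, Lig1) and, for contrast, Orc1, Orc3 and Rpa1. Points are libraries (3 a WT group, 2 a p27KO group) and lines are group means. For the interaction genes the p27KO DIFF points stand above the WT DIFF points, while the PRO points lie closer together. For Mcm5 and Clspn the p27KO PRO points also lie above all WT PRO points, as for 12 members and 6.94% of all genes tested. Rpa1 and Orc3 overlap between the labels.

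The interaction calls were few and depended on the libraries used. Leaving out WT PRO replicate 2 or 3 left 0 of the 5, and 0 of all 12859 genes tested were then called. Leaving out WT PRO replicate 1 left 3 (Mcm5, Ticrr and Clspn), with 13 of all genes called, against 50 in the main fit. Where a p27KO library was left out, its group held 1 library, which was assumed to vary like the others. The members' median interaction was then 0.54 or 0.31 without p27KO PRO replicate 1 or 2. It was 0.38 or 0.37 without p27KO DIFF replicate 1 or 2. Over 17 alternatives the fitted values ran from 1.55 to 1.91 for Ticrr, 1.27 to 1.47 for Clspn and 1.09 to 1.24 for Mcm5. They ran from 0.89 to 0.99 for Dbf4 and 0.69 to 0.81 for Lig1. DESeq2 called 11, and 157 of all genes, adding Cdc6, Mcm2, Mcm10, Pole, Chaf1a and Chaf1b to the 5. The largest fitted value belonged to Cdc6, at 1.79 with a 95% interval from 0.99 to 2.58, which was not called (adjusted p = 0.087 in edgeR's quasi-likelihood test). By role, the median interaction was 0.98 for licensing, 0.94 for firing factors, 0.84 for CAF-1 and 0.76 for MCM2-7, but 0.15 for ORC, 0.13 for the clamp and clamp loader, 0.04 for RPA and 0.03 for CDC45 and GINS. The 95% interval was -0.42 to 0.41 for Gins2, -0.30 to 0.28 for Gins4, -0.35 to 0.27 for Rpa1 and -0.32 to 0.22 for Rfc1. The difference between role groups was not tested.

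Other genes of the pathway, a list of 32 with roles in clamp unloading, histone supply, RNA primer removal and CDT1 destruction, were read beside the members. Of the 31 that passed the filter (Dscc1 did not), 27 were called DOWN in WT, against 33.9% of all genes tested, and 0 UP, against 33.5%. Their median there was -1.07 (all genes -0.0019). In p27KO 25 were called DOWN, against 30.2%, and 0 UP, against 27.5%, with a median of -0.83 (all genes -0.029). Uhrf1, which couples DNA methylation to replication, fell most, from 199.6, 229 and 243 to 9.21, 5.39 and 9.25 CPM (-4.83 ± 0.18). Pclaf, a PCNA-binding factor, fell from 138.4, 145.6 and 161.2 to 6.31, 3.15 and 7.75 CPM (-4.71 ± 0.26). At the other end were Top1, a topoisomerase with a general role in transcription, at 0.03 ± 0.09, and Ddb1, part of a ubiquitin ligase, at -0.18 ± 0.07. At 2 + 1 DIV, 5 were called UP in p27KO (Asf1b, Dtl, Mms22l, Pclaf and Uhrf1), against 1.91% of all genes, and 0 DOWN, against 0.124%. Their median was 0.13 (all genes -0.015). In the interaction and in neurospheres edgeR's quasi-likelihood test called 0, against 0.389% and 0.0156% of all genes UP. There, 6 and 1 had an unadjusted p under 0.05, as did 554 and 603 of the 12859 genes tested.

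Read against the promoter words, the members with an E2F word in their window (18 genes) had a median WT change of -3.11, ranging from -5.78 for Cdc6 to 0.24 for Orc3, and those without one (27 genes) a median of -2.50, ranging from -5.17 for Chaf1b to 0.23 for Orc4. Both sets thus held genes at each end of the range. Of the 5 genes called in the interaction, Mcm5, Clspn and Lig1 held an E2F word and Ticrr and Dbf4 did not, and Lig1 held it in 1 of its 3 windows. Ticrr held 4 CCAAT boxes, the most of any member window. For 9 members, Pole, Gins1, Gins2, Gins4, Tipin, Mcm4, Prim2, Rfc2 and Gmnn, no window was used here.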

How the data were processed

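RNA-seq values of 10 libraries were analysed. Per the labels and methods, STAR was run against the mouse transcripts of Ensembl (GRCm38), and the deposited values are estimated counts per gene that the authors made with RSEM, held as whole numbers and not normalized. Versions and strand use are not given in the sources used here. The 54 members and the other lists were chosen with earlier results of these data known.

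A gene was dropped where 4 or more libraries had under 1 CPM, which left 12859. TMM scaling and a robust quasi-likelihood fit of the 4 groups used edgeR 4.0.16 in R 4.3.3, with two-sided tests, Benjamini-Hochberg adjustment over all genes and a threshold of 0.05. Scripts were tested on simulated data. Alternatives were DESeq2 1.42.0, other scaling and filters, the replicate block and leaving out each library. Exon bases came from GENCODE M21. CPM values are per library total, without TMM factors. The 10 columns were mapped to samples by genotype, stage and replicate.

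All members may be named. Per-library values are given for the member of each role with the highest mean CPM, the largest WT stage change and the largest interaction, for members called between genotypes or in the interaction, and for those not called DOWN in WT. Of the other replication genes, the 2 with the largest and the 2 with the smallest WT change are named, and those called at 2 + 1 DIV were named after their values were seen. Same-numbered WT libraries of both stages deviated together, with correlations of 0.259, 0.340 and 0.428. Those with unlike numbers had -0.223 to -0.106. The numbers may thus pair libraries in WT, but a shared culture is not given in the sources used here. For p27KO the correlation was -0.196 for like and 0.196 for unlike numbers, equal in size because each group held 2 libraries. No pair of replicates agreed within sampling noise (chi-square per gene of 14.8 or more).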

Additional observations from a re-analysis of the deposited data

Results flagged for a closer look

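In 5 members the change between stages differed between the libraries labelled p27KO and WT, by a test of the difference itself (the interaction term in edgeR's quasi-likelihood test, adjusted over all genes). The interaction, as a log2 fold change, was 1.72 for Ticrr, 1.38 for Clspn, 1.18 for Mcm5, 0.94 for Dbf4 and 0.75 for Lig1. In each of them both p27KO DIFF libraries lay above all 3 WT DIFF libraries, as for 42 of the 54 members and 17.0% of all genes tested. The 5 were picked by a test on these same libraries, so that order is no separate support. Over 17 alternatives the adjusted p of edgeR or DESeq2 ran from 3.3e-10 to 0.16 for Ticrr, which was called in 11, and from 8.0e-05 to 0.24 for Lig1, which was called in 4. Groups of 2 and 3 libraries are too small for a search for single libraries that stand apart.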

How the results depend on the processing

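Of 4752 values of single members under an alternative, 4579 stayed on their side of the threshold, 130 were no longer called and 43 became called. The sign changed in 81, none of which was called before or after. In WT the 2 genes called UP (Orc3 and Orc4) became 1 with genes kept at 1 CPM in at least 4 libraries, and 0 with no filter or with an absolute log2 fold change of at least 1. Leaving out single libraries gave 0 to 2. In p27KO the 1 gene called UP became 0 with either other filter, with the compared groups alone and with the fold threshold, and 0 to 1 without single libraries. The p27KO median ran from -2.23 to -1.97 without single libraries, the latter without p27KO PRO replicate 1. Interaction calls went from 5 (50 of all genes) to 11 with DESeq2 (157) and to 3 with the fold threshold (46). They ran from 0 to 6 without single WT libraries, with 0 to 89 of all genes called. At 2 + 1 DIV the 21 calls became 4 with the compared groups alone and 9 with the fold threshold, and ran from 7 to 24 without single libraries. The cause was not tested. The replicate block left 4 interaction calls (49 of all genes) and 24 at 2 + 1 DIV (390). The crossed numbering of p27KO and a block within genotype were both added after seeing the data. They gave 5 and 4 interaction calls (41 and 29 of all genes), and the former 27 at 2 + 1 DIV (524). Fewest counts stood behind Cdc6 in WT DIFF, at 11 to 23.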
